A study of Mus musculus with 56 samples.

Results

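The comparison described here sets activated CD4 T cells that lacked surface CD62L at 72 h against the same sort at 48 h, in the second of the series' 2 experiments. Its members are 6 of the series' 56 libraries, 3 at 72 h and 3 at 48 h, chosen by the sort, the time and the experiment named in the labels. All came from spleen CD4 T cells of C57BL/6 mice, activated on beads carrying antibodies to CD3 and CD28 in complete RPMI without added cytokines, from a start of 250000 cells per ml, and sorted as CD4 positive, CD62L negative and CD44 positive. For comparison, CD62L positive cells of the same experiment (3 libraries at 72 h, 3 at 48 h) and CD62L negative cells of experiment 1 (3 at 72 h, 3 at 48 h, sorted without the CD44 gate) were cultured the same way. No genotype other than the strain is given, and nothing in the labels tells if the 3 libraries of a sort and time are separate mice or separate wells. The p-values therefore measure only the spread between libraries of a group, which may be technical. That spread was estimated over all 13 groups of experiment 2, and over all 6 of experiment 1, and not from the compared libraries alone.

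CD62L is the adhesion molecule with which lymphocytes enter lymph nodes; naive and central memory T cells carry it, and effector cells shed and then stop making it. Signalling through the T-cell receptor switches on immediate early regulators, cytokine genes, ribosome production and cell division, while quiescence factors such as Klf2 and the egress receptor gene S1pr1 are switched off. The comparison asks how far such programmes had moved between the second and the third day in cells that had lost CD62L.

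Cd44, a sorting marker of the gate, had 15, 22.1 and 10.5 CPM at 72 h, against 21.7, 36.5 and 19.7 CPM at 48 h, where CPM are counts scaled to library size with TMM factors. The groups overlapped, and the difference of -0.74 ± 0.32 on the log2 scale (± SE) did not pass edgeR's test (adjusted p = 0.0808).

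Library totals ran from 1055838 to 1179511 counts at 72 h and from 1762614 to 3359875 at 48 h. The chi-square per degree of freedom between libraries of 1 group, which is about 1 for counting error, was 2.79 to 6.34 at 72 h and 9.2 to 16.5 at 48 h. Titles carry a second number whose meaning is not given, 1, 1 and 2 at 72 h and 1, 2 and 2 at 48 h. All 8 CD4 T-cell markers were detected at both times, with a summed level of 3123 to 3221 CPM at 72 h and 2332 to 2889 CPM at 48 h. B-cell markers summed to 4.87 to 13.9 CPM at 72 h and 6.61 to 12.6 CPM at 48 h, with Ms4a1 and Pax5 at 0 throughout and 8 of 14 markers at 0 at each time. CD8 and NK markers summed to 13.1 to 21.1 CPM at 72 h and 15.0 to 25.2 CPM at 48 h, with Cd8a, Ncr1 and 7 others of 11 at 0. Myeloid markers summed to 164 to 229.5 CPM at 72 h and 129.7 to 157.9 CPM at 48 h, almost all from Cst3, with Lyz2 and Cd14 at 0; 10 of 18 were at 0 at 72 h and 11 at 48 h. Red-cell and platelet markers summed to at most 2.46 CPM, and lung epithelial markers to at most 17.7 CPM. The part of these levels in the results was not tested.

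At 72 h the CD62L negative cells had higher levels of Klf2, S1pr1 and Anxa2 than at 48 h. Lower were Il2, Nr4a1 and 22 of 26 tested members of a ribosome biogenesis list. In all, 2269 of 9239 genes tested passed edgeR's quasi-likelihood test at a Benjamini-Hochberg adjusted p of 0.05, which is 24.6% of them. Of these, 1158 were higher at 72 h (12.5% of genes tested) and 1111 lower (12%). At least a 2-fold difference was reached by 625 of the higher and 411 of the lower genes. The median difference over all genes tested was 0.01. Counts of list members below are to be read beside the shares of 12.5% higher and 12% lower. "Rose" and "fell" below are used only of genes past this test. RNA was measured in bulk, so a change in the share of a cell type and a change in RNA per cell cannot be told apart.

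Among genes past the test whose average level was at or above the median of all genes tested and whose groups did not overlap, the 15 largest rises were in Itga7, Irf7, Rasgrp2, S1pr1, Anxa2, Klf2, Pik3ip1, Pdlim4, Crip1, Cmah, Cdc25b, AB124611, Rasa3, Itgb7 and Arl4c. Itga7, an integrin alpha chain, had 30.0, 24.6 and 42.2 CPM at 72 h, against 2.23, 2.3 and 3.03 CPM at 48 h, a log2 difference of 3.66 ± 0.43. Rasgrp2, an activator of the GTPase Rap1, had 140.3, 129.6 and 198 CPM at 72 h, against 13.4, 17.8 and 11.6 CPM at 48 h (3.41 ± 0.22). Pik3ip1, an inhibitor of phosphoinositide 3-kinase, had 78.5, 77.9 and 75.4 CPM at 72 h, against 10.6, 12.6 and 8.58 CPM at 48 h (2.83 ± 0.24). For each of them every 72 h library was above every 48 h library, which was a condition of their choice. The same holds for the other rises named here and the falls named next, wherever they appear below. Of all genes tested, 17.5% were without overlap and higher at 72 h, and 16.9% without overlap and lower.

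Under the same limits the 15 largest falls were in Ccl4, Rpph1, Zbtb32, Irf8, Lad1, Tnfsf11, Lta, Il2, Nr4a3, Nr4a1, Cdkn1a, Gpr83, Egr1, Srm and Marcksl1. Ccl4, a chemokine of activated T cells, had 4.41, 4.92 and 6.49 CPM at 72 h, against 71.8, 99.8 and 86.3 CPM at 48 h (-4.01 ± 0.29, adjusted p = 3.10e-15). Lta, the gene for lymphotoxin alpha, had 242, 204 and 275 CPM at 72 h, against 1434, 1066 and 1489 CPM at 48 h (-2.47 ± 0.15). Genes of lower average level, Ccl3 among them, had falls as large. Ccl4 and Lta were lower in each 72 h library than in any 48 h library, again a condition of their choice. Rpph1, the RNA of ribonuclease P, is not known to carry a poly-A tail, so its 109, 89.4 and 143 CPM at 72 h, against 1398, 1232 and 1517 CPM at 48 h are given as uncertain.

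**Figure D1:**
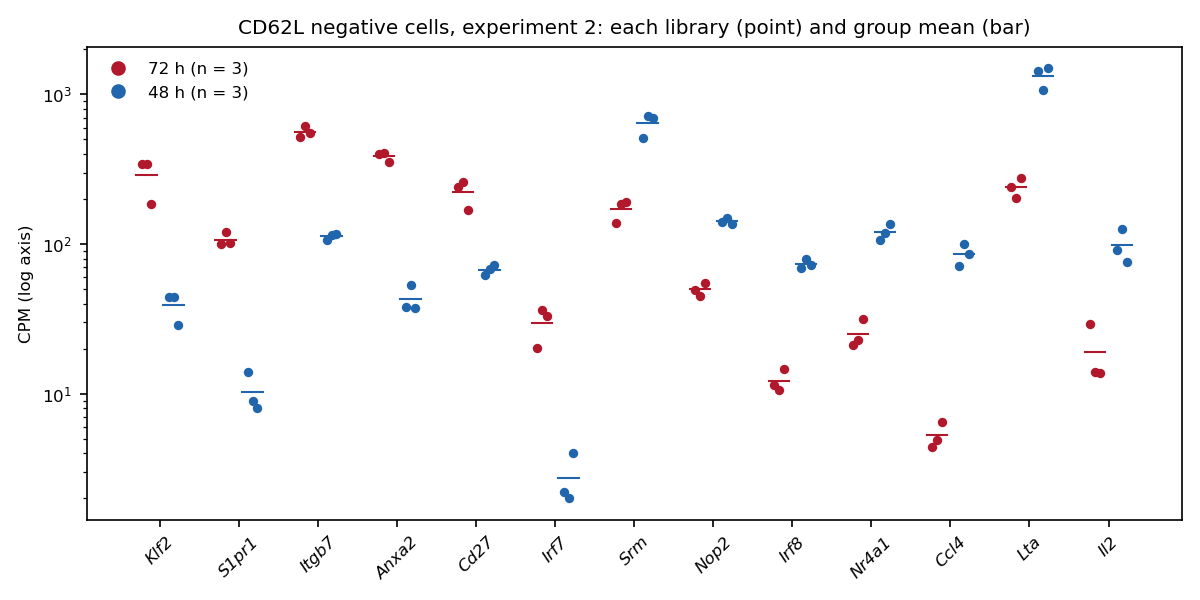
CPM on a log axis of 13 genes in each CD62L negative library of experiment 2 (points), with the mean of each group as a bar, 72 h on the left of 48 h. The groups do not overlap for any of these genes: Klf2 lies between 184 and 345 CPM at 72 h, against 28.8 to 44.5 CPM at 48 h, and Lta between 204 and 275 CPM at 72 h, against 1066 to 1489 CPM at 48 h.

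Genes of lymphocyte migration moved in both directions, with egress genes up. Klf2, the transcription factor that keeps T cells quiescent and recirculating, had 345, 344 and 184 CPM at 72 h, against 44.5, 44.3 and 28.8 CPM at 48 h, a rise of 2.88 ± 0.20 (adjusted p = 5.41e-16). S1pr1, the sphingosine 1-phosphate receptor by which T cells leave lymphoid organs and a known target of Klf2, had 99.7, 119.7 and 101 CPM at 72 h, against 13.9, 8.91 and 8.07 CPM at 48 h, a rise of 3.40 ± 0.25 (adjusted p = 1.45e-15). Itgb7, the beta chain of gut-homing integrins and another Klf2 target, had 519.8, 618 and 548 CPM at 72 h, against 106, 114 and 117 CPM at 48 h (2.32 ± 0.18). For each of these genes the lowest 72 h library was above the highest 48 h library. The related receptor gene S1pr4 rose by 2.11 ± 0.21 and the repressor gene Klf3 by 1.98 ± 0.22. Selplg, whose product is the ligand of selectins, rose by 1.05 ± 0.17. On the other side Ccr4, a chemokine receptor of activated T cells, changed by -1.76 ± 0.35, and Cd69, an activation antigen that holds S1pr1 inside the cell, by -1.14 ± 0.22. Ccr7, the lymph node homing receptor, had 629, 577 and 611 CPM at 72 h, against 479, 581 and 514 CPM at 48 h and did not pass (adjusted p = 0.234). Of 17 migration genes tested, 8 were higher and 4 lower, with a median of 0.31.

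Transcription factors and receptors of naive and memory T cells were mostly higher. Il7r, the receptor for the survival cytokine IL-7, had 23.8, 17.2 and 22.7 CPM at 72 h, against 7.79, 3.74 and 5.05 CPM at 48 h (2.00 ± 0.44). Tcf7, a factor of naive and memory cells, had 113, 146 and 91.7 CPM at 72 h, against 35.6, 65 and 51.5 CPM at 48 h (1.18 ± 0.20), and the chromatin organiser gene Satb1 44.1, 49.2 and 43.8 CPM at 72 h, against 17.8, 12.9 and 22.7 CPM at 48 h (1.39 ± 0.26). All 3 were higher in every 72 h library. Ets1, which T cells need to stay quiescent and to survive, rose by 1.08 ± 0.14, Il6ra by 1.30 ± 0.23 and the survival gene Bcl2 by 0.94 ± 0.15. In the list of naive and memory genes 9 of 16 tested were higher and 1 lower, with a median of 0.62. The lower one lost its call without 72 h replicate 2, 48 h replicate 1 or 48 h replicate 3.

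Effector transcription factors did not move as a block. Irf8, an interferon regulatory factor of activated T cells, had 11.5, 10.7 and 14.6 CPM at 72 h, against 69.6, 79.3 and 72.2 CPM at 48 h, a log2 difference of -2.58 ± 0.26 (adjusted p = 4.17e-11). Zbtb32, a repressor induced by activation, had 6.18, 4.92 and 8.11 CPM at 72 h, against 50.6, 48.3 and 66.1 CPM at 48 h (-3.08 ± 0.31). Irf4, whose level follows the strength of receptor signalling, had 102, 76.3 and 81.9 CPM at 72 h, against 198, 206 and 202 CPM at 48 h (-1.22 ± 0.16). Each of these was lower in every 72 h library, as was Bhlhe40, a regulator of cytokine production (-1.17 ± 0.22). Against these, Gata3, the factor of Th2 cells, rose by 1.23 ± 0.20 and Stat4, which carries the IL-12 signal, by 0.81 ± 0.20. Of 16 effector and lineage factors tested, 3 were higher and 4 lower, with a median of -0.31. Tbx21 and Ifng, the factor and the cytokine of Th1 cells, had at most 2.46 CPM and 0.883 CPM in these libraries and were too low to be tested. Gzmb, an effector protease gene, had 5.29, 4.92 and 0.811 CPM at 72 h, against 0.557, 2.3 and 0 CPM at 48 h and did not pass (1.57 ± 0.76, adjusted p = 0.127). Without 48 h replicate 2 its difference was 3.42, at an adjusted p of 0.0219.

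Genes induced by receptor signalling that passed were lower at 72 h, with Jun as the 1 exception. Nr4a1, an orphan nuclear receptor that reports recent receptor signals, had 21.2, 23 and 31.6 CPM at 72 h, against 107, 119 and 137 CPM at 48 h, a log2 difference of -2.25 ± 0.23 (adjusted p = 5.56e-11). Its relative Nr4a3 had 3.53, 3.28 and 10.5 CPM at 72 h, against 31.2, 29.9 and 31.8 CPM at 48 h (-2.39 ± 0.33), and the zinc finger gene Egr1 8.82, 10.7 and 14.6 CPM at 72 h, against 52.9, 41.4 and 41.9 CPM at 48 h (-1.98 ± 0.29). Egr3, of the same family, changed by -1.98 ± 0.33 and Nfkbid, an atypical inhibitor of NF-kB, by -1.31 ± 0.23. Egr2, at 0.82 to 6.56 CPM, missed the threshold (-1.68 ± 0.65, adjusted p = 0.0519). The list had 8 of 17 tested members lower and 1 higher, with a median of -0.66. The higher one, Jun (1.00 ± 0.34, adjusted p = 0.0267), lost its call without 72 h replicate 1, 48 h replicate 1 or 48 h replicate 2. Fos was higher at 72 h without overlap of the groups and did not pass (1.04 ± 0.49, adjusted p = 0.115).

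Il2, the T-cell growth factor gene, had 29.1, 13.9 and 13.8 CPM at 72 h, against 91.8, 126 and 76.2 CPM at 48 h, a log2 difference of -2.39 ± 0.28 (adjusted p = 1.36e-08). No 72 h library reached the lowest 48 h library. Il2ra, the alpha chain of the IL-2 receptor, had 169, 175 and 244 CPM at 72 h, against 331, 235 and 209 CPM at 48 h and did not pass (adjusted p = 0.137). Genes that IL-2 and its transcription factor STAT5 induce went both ways: the kinase gene Pim1 rose by 1.36 ± 0.19, while Pim2 changed by -1.49 ± 0.16 and the survival gene Bcl2l1 by -1.80 ± 0.18. Of 19 members tested, 4 were higher and 6 lower (median -0.18); without 72 h replicate 2, 2 were higher. Lif, a cytokine of the IL-6 family, changed by -1.58 ± 0.35, and the chemokine gene Ccl3 had 0, 0.82 and 5.68 CPM at 72 h, against 15, 31.3 and 14.6 CPM at 48 h (-3.19 ± 0.53). Of 6 cytokine genes tested 3 were lower and 1 higher, the higher one not past the test without 72 h replicate 3 or 48 h replicate 1, and of 4 chemokine genes 2 were lower.

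Receptors and ligands of the TNF family that costimulate T cells and passed were lower, apart from Cd27. Tnfrsf4, which encodes OX40, had 347, 284 and 317 CPM at 72 h, against 1174, 816 and 841 CPM at 48 h (-1.58 ± 0.17). Tnfsf11, the gene for RANKL, had 19.4, 9.02 and 21.9 CPM at 72 h, against 114, 49.2 and 121 CPM at 48 h (-2.47 ± 0.38). Cd27, a receptor that naive and memory cells carry, had 241, 260.0 and 169 CPM at 72 h, against 62.3, 68.1 and 72.2 CPM at 48 h, a rise of 1.72 ± 0.17 (adjusted p = 3.20e-11). The 72 h and 48 h libraries did not overlap for any of these. Tnfrsf9 changed by -1.39 ± 0.25. Of 15 members tested, 5 were lower and 1 higher, with a median of -0.59. Among coinhibitory receptors 4 of 7 were lower and 1 higher (median -0.66): Pdcd1, the gene for PD-1, had 17.6, 11.5 and 14.6 CPM at 72 h, against 33.9, 56.1 and 50.5 CPM at 48 h (-1.70 ± 0.26), Cd200 changed by -1.59 ± 0.38, and Cd5, a damper of receptor signals, rose by 0.85 ± 0.15.

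Of the 31 lists, ribosome biogenesis had the largest share of tested members past the test in 1 direction. The list also counts Srm, spermidine synthase, an enzyme of polyamine synthesis and not a ribosome assembly factor. Srm had 138, 185 and 189.8 CPM at 72 h, against 513, 716 and 700.4 CPM at 48 h, a log2 difference of -1.91 ± 0.16 (adjusted p = 6.60e-14). Nop56, a core protein of small nucleolar ribonucleoproteins, had 102, 125 and 127 CPM at 72 h, against 378, 330.3 and 303 CPM at 48 h (-1.51 ± 0.17), and Nop2, a ribosomal RNA methyltransferase, 49.4, 45.1 and 55.2 CPM at 72 h, against 141, 149 and 136 CPM at 48 h (-1.51 ± 0.17). All 3 had no overlap between times. Nop16, of the assembling large subunit, changed by -1.40 ± 0.17 and Nhp2, of the pseudouridylation complex, by -1.08 ± 0.14. In the list 22 of 26 tested members were lower, none was higher, and the median was -1.05; the remaining 4, Fbl, Ncl, Npm3 and Wdr12, had differences of -0.46, -0.53, -0.66 and -0.91. Myc, the growth regulator known to drive this programme, had 114, 124 and 58.4 CPM at 72 h, against 109.6, 142 and 122 CPM at 48 h and did not pass (-0.34 ± 0.22, adjusted p = 0.28). Its target Odc1, ornithine decarboxylase, changed by -1.38 ± 0.22, and Mxd3, of the family that competes with Myc for its partner, rose by 1.55 ± 0.20. Ribosomal proteins themselves took 23.9 to 27.6% of counts at 72 h and 27.1 to 28.2% at 48 h.

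The proximal promoter of Nop2 is shown because it is the ribosome biogenesis gene with the smallest adjusted p whose promoter holds the E-box that Myc and other factors bind. It comes from RefSeq (build GRCm38.p6, chr6:125131633-125131932, plus strand), from 250 bases before to 50 after the annotated start, and the E-box, in capitals, begins 60 bases before the start.
Nop2: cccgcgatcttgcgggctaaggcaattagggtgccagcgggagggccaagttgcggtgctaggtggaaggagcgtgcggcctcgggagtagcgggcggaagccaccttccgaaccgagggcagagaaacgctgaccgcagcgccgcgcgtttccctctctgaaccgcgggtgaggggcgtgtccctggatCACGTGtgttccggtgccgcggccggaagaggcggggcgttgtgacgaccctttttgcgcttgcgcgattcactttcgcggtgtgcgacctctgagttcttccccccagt
The letters CACGTG, the same on both strands, were in 5 of 22 promoters of the list (22.7%), found for 20 of 26 members, against 7.15% of 32851 mouse promoters of that length and 10.6% of the 9041 among them that belong to genes tested. Such a match is a description and not a binding site.

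Genes of the amino acid response under the transcription factor ATF4 and of the secretory pathway that passed were mostly lower. Atf4 had 387, 336 and 391 CPM at 72 h, against 727, 556 and 612 CPM at 48 h (-0.77 ± 0.13), and Shmt2, of mitochondrial serine and folate metabolism, changed by -0.80 ± 0.19. Trib3, a target of ATF4 that also restrains it, went the other way with 38.8, 42.6 and 31.6 CPM at 72 h, against 19.5, 16.4 and 10.6 CPM at 48 h (1.28 ± 0.26). Of 21 members tested, 9 were lower and 2 higher (median -0.60). Calr, the calcium-binding chaperone calreticulin, had 492, 456 and 494 CPM at 72 h, against 1362, 973 and 885 CPM at 48 h (-1.16 ± 0.14), and Xbp1, a regulator of the unfolded protein response, changed by -0.89 ± 0.17. Of 17 secretory chaperones tested 5 were lower and 1 higher (median -0.52), with 3 higher without 48 h replicate 1 and 2 without 72 h replicate 3. In oxidative phosphorylation 7 of 24 tested were lower and 1 higher, with a median of -0.26, the higher one not past the test without 72 h replicate 1 or 2 or 48 h replicate 3; Atp5g1, a subunit of ATP synthase, changed by -0.95 ± 0.17 and Ndufab1, of complex I, by -0.86 ± 0.16.

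Few cell division genes passed in experiment 2. Gins2, of the replicative helicase, had 140.3, 139 and 136 CPM at 72 h, against 257, 247 and 259 CPM at 48 h (-0.88 ± 0.14), and Tk1, thymidine kinase, changed by -0.69 ± 0.16. Of 27 replication genes tested 4 were lower and none higher (median -0.24), with 1 higher without 72 h replicate 3, a share near the 12% lower among all genes tested. Cdc25b, the phosphatase that starts mitosis, had 162, 148 and 164 CPM at 72 h, against 23.4, 32.5 and 25.2 CPM at 48 h, a rise of 2.52 ± 0.23 (adjusted p = 8.57e-12). Top2a, topoisomerase II, had 709, 596 and 877 CPM at 72 h, against 615, 404 and 405 CPM at 48 h (0.62 ± 0.16). Its groups overlapped. Within libraries of second number 1 alone, which hold 1 library at 48 h, the difference was 0.077. Within those of number 2 alone, which hold 1 at 72 h, it was 1.12. The proliferation antigen Mki67 had 268, 258 and 359 CPM at 72 h, against 261, 189 and 159 CPM at 48 h, which did not pass (adjusted p = 0.115). It passed without the low-count filter (adjusted p = 0.0172) and without 48 h replicate 1 (0.0415). Within libraries of second number 1 alone its difference was 0.0048, and within those of number 2 alone 1.045. Of 25 mitotic genes tested 5 were higher, against 12.5% of all genes tested, and 1 lower (median 0.26); without 48 h replicate 3, 2 were higher, and without 72 h replicate 1, 3 were. The lower one lost its call without 72 h replicate 2 or 3 or 48 h replicate 2 or 3. Among G1 regulators E2f2 rose by 1.49 ± 0.17 and Cdkn2d, an inhibitor of cyclin D kinases, by 1.19 ± 0.19. Cdkn1a, the gene for p21, had 70.6, 48.4 and 56 CPM at 72 h, against 307, 241 and 226 CPM at 48 h, a log2 difference of -2.14 ± 0.19 (adjusted p = 4.09e-12).

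Cdkn1a belongs also to the targets of p53, of which those that passed were mostly lower. Phlda3, an inhibitor of AKT, had 18.5, 12.3 and 15.4 CPM at 72 h, against 42.3, 58.6 and 59.5 CPM at 48 h (-1.80 ± 0.35), Gtse1 changed by -1.26 ± 0.20 and the death effector Bax by -0.80 ± 0.15. Sesn1, a stress-induced regulator of growth, had 102, 121 and 79.5 CPM at 72 h, against 48.4, 37.7 and 33.8 CPM at 48 h, a rise of 1.34 ± 0.19. Of 14 members tested 8 were lower and 2 higher, with a median of -1.03; without any 1 library other than 72 h replicate 1, 1 was higher. In the Bcl2 family, 4 of 14 were lower and 2 higher, against 12% lower and 12.5% higher among all genes tested. Bcl2l1 had 107, 87.8 and 82.7 CPM at 72 h, against 273, 337 and 354 CPM at 48 h. Mcl1 had 161, 200.1 and 180.1 CPM at 72 h, against 113, 104 and 118 CPM at 48 h (0.70 ± 0.15). Of the survival genes Bcl2 and Bcl2l1, Bcl2 rose and Bcl2l1 fell.

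The promoter of Top2a is shown because it is the mitotic gene with the smallest adjusted p that holds the cell-cycle homology region, a motif of genes expressed late in the cell cycle (RefSeq, GRCm38.p6, chr11:99024140-99024439, minus strand). Its matches, in capitals, begin 179 and 23 bases before the start.
Top2a: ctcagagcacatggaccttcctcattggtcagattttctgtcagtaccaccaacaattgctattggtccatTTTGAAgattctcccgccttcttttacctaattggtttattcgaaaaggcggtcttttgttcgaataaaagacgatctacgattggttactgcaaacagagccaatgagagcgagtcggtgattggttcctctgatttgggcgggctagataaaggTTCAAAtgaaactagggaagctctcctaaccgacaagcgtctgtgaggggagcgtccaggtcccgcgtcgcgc
The letters TTTGAA, on either strand, were in 16 of 22 promoters of the mitosis list (72.7%), found for 21 of 26 members, against 17.9% of all 32851 and 12% of those of genes tested.

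Genes of the response to low oxygen that passed were mostly higher, and few glycolysis genes passed. Ndrg1, a hypoxia-induced gene of growth arrest, had 110.3, 127 and 118 CPM at 72 h, against 36.7, 51.2 and 30.3 CPM at 48 h, a rise of 1.56 ± 0.18 (adjusted p = 1.81e-09). P4ha2, a prolyl hydroxylase of collagen, had 30.9, 23.8 and 21.1 CPM at 72 h, against 5.57, 8.62 and 6.05 CPM at 48 h (1.84 ± 0.33), and Bnip3l, which marks mitochondria for removal, 53.8, 59 and 111 CPM at 72 h, against 28.9, 29 and 32.3 CPM at 48 h (1.31 ± 0.32). Every 72 h library was above every 48 h library for each. Car12, a carbonic anhydrase, went the other way (-1.39 ± 0.27). Of 17 members tested 7 were higher and 2 lower (median 0.66). Without any 1 library other than 48 h replicate 3, 1 was lower. In CD62L positive cells of the same experiment 14 of 17 were higher and 1 lower (median 1.39). In glycolysis 1 of 13 was higher, not past the test without 72 h replicate 3, and 1 lower, with a median of -0.01; Ldha, lactate dehydrogenase, had 2817, 2084 and 2707 CPM at 72 h, against 2731, 2729 and 3290.1 CPM at 48 h. Gapdh is uncertain, since it had 909, 8.2 and 679.7 CPM at 72 h, against 512, 582 and 562 CPM at 48 h, with 72 h replicate 2 far below the other 5 libraries.

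P4ha2 is the hypoxia gene with the smallest adjusted p whose promoter holds the core of the hypoxia response element, printed in capitals 79 bases before the start (RefSeq, GRCm38.p6, chr11:54100674-54100973, plus strand).
P4ha2: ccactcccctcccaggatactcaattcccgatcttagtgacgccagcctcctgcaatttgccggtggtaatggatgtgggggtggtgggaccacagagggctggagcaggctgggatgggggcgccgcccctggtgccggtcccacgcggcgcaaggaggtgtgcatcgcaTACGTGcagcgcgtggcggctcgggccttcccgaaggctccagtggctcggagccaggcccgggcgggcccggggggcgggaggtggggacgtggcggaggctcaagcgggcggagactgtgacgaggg
The letters TACGTG, on either strand, were in 6 of 26 promoters of the list (23.1%), found for 17 of 19 members, against 3.23% of all 32851 and 4% of those of genes tested.

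Genes of cholesterol and fatty acid synthesis that passed were higher at 72 h. Fdps, which makes farnesyl diphosphate, had 311, 322 and 398 CPM at 72 h, against 169, 151 and 166 CPM at 48 h, a rise of 1.09 ± 0.14 (adjusted p = 3.90e-08). Scd2, a fatty acid desaturase, had 575, 569 and 445 CPM at 72 h, against 249.9, 257 and 243 CPM at 48 h (1.08 ± 0.17), and Hmgcs1, at the entry of the pathway, 322, 295 and 266 CPM at 72 h, against 201, 195 and 203 CPM at 48 h (0.56 ± 0.14). Of 21 members tested 9 were higher and none lower, with a median of 0.56; without 72 h replicate 2, 4 were higher.

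Type I interferon-induced genes that passed were higher, apart from Bst2. Irf7, the master regulator of type I interferon, had 20.3, 36.1 and 33.3 CPM at 72 h, against 2.23, 2.01 and 4.04 CPM at 48 h, a rise of 3.47 ± 0.35 (adjusted p = 4.59e-11). Ifi27l2a, an interferon-induced mitochondrial protein gene, had 1213, 1091 and 1550.0 CPM at 72 h, against 633, 525 and 658 CPM at 48 h (1.09 ± 0.13), and Stat2, which carries the type I interferon signal, 36.2, 44.3 and 45.4 CPM at 72 h, against 22.8, 18.7 and 13.6 CPM at 48 h (1.19 ± 0.27). Bst2, the gene for tetherin, went the other way with 101, 101 and 79.5 CPM at 72 h, against 169, 155 and 162 CPM at 48 h (-0.79 ± 0.16). Of 22 type I members tested 10 were higher and 1 lower (median 1.12). The interferon-stimulated response element, on either strand, was in 10 of 22 promoters of the list (45.5%), found for 18 of 28 members, against 3.44% of all and 3.13% of those of genes tested. Among genes of interferon gamma and antigen presentation 9 of 22 were higher and 1 lower (median 0.44); without 72 h replicate 2, 5 were higher, and without 48 h replicate 2, 2 were lower. H2-K1 and H2-D1, classical class I genes that share sequence with near copies and are uncertain for that reason, rose by 0.78 ± 0.14 and 0.77 ± 0.13. Igtp, an interferon gamma-induced GTPase gene, changed by -0.74 ± 0.14.

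In a list of annexins, galectins and S100 proteins, which mark memory and effector cells, most genes rose. The list also holds Capg, Vim, Crip1 and Ahnak, which belong to other families and all rose. Of the named families Anxa4, Anxa7, Lgals9 and S100a11 did not pass. Anxa2 had 399, 408 and 354 CPM at 72 h, against 37.8, 52.9 and 37.3 CPM at 48 h, a rise of 3.16 ± 0.18 (adjusted p = 2.91e-19). Crip1, a small LIM-domain protein gene, had 2553, 2245 and 3161 CPM at 72 h, against 528, 404 and 449.6 CPM at 48 h (2.53 ± 0.16), Lgals1, galectin 1, 2022, 1609.9 and 2793 CPM at 72 h, against 515, 433 and 702 CPM at 48 h (1.96 ± 0.18), and Vim, the intermediate filament vimentin, 4589, 4208 and 2920.0 CPM at 72 h, against 1504, 1269 and 1214 CPM at 48 h (1.55 ± 0.16). No 48 h library reached the lowest 72 h library for any of them. Of 17 members tested 12 were higher and 1 lower, with a median of 0.95; the lower one lost its call without 72 h replicate 1 or 3 or 48 h replicate 3. The Gimap GTPases, which support survival of resting lymphocytes, had 5 of 8 members higher and none lower (median 1.15); Gimap4 had 438, 334 and 567 CPM at 72 h, against 168, 125 and 166 CPM at 48 h (1.55 ± 0.24) and Gimap3 252, 258 and 240.1 CPM at 72 h, against 73.5, 88.3 and 112 CPM at 48 h (1.46 ± 0.17). They lie in a cluster of related genes, so reads that fit several members are uncertain.

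Of 19 genes of the T-cell receptor complex and its first signalling steps 6 were higher and none lower (median 0.27); Txk, a Tec-family kinase, had 36.2, 59 and 47.9 CPM at 72 h, against 15.6, 18.7 and 12.6 CPM at 48 h (1.58 ± 0.24), and Cd247, the zeta chain, rose by 0.71 ± 0.14. Regulatory T-cell genes had 3 of 12 higher and 6 lower: Gpr83 had 15, 14.8 and 14.6 CPM at 72 h, against 76.8, 55.8 and 47.9 CPM at 48 h (-2.01 ± 0.26), Ebi3, a subunit of IL-35, changed by -1.30 ± 0.18, and Capg, an actin-capping protein gene, rose by 0.95 ± 0.14. Foxp3, the factor that defines these cells, had 5.29, 4.1 and 7.3 CPM at 72 h, against 1.67, 2.01 and 2.02 CPM at 48 h (adjusted p = 0.046). That call was lost without any 1 library other than 72 h replicate 2, with DESeq2 (0.0579) and without the low-count filter (0.0774). Within libraries of second number 1 alone its difference was 1.44, and within those of number 2 alone 1.825. Each of these splits leaves 1 library at 1 of the times. Of 11 follicular helper genes 1 was higher and 3 were lower.

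**Figure D2:**
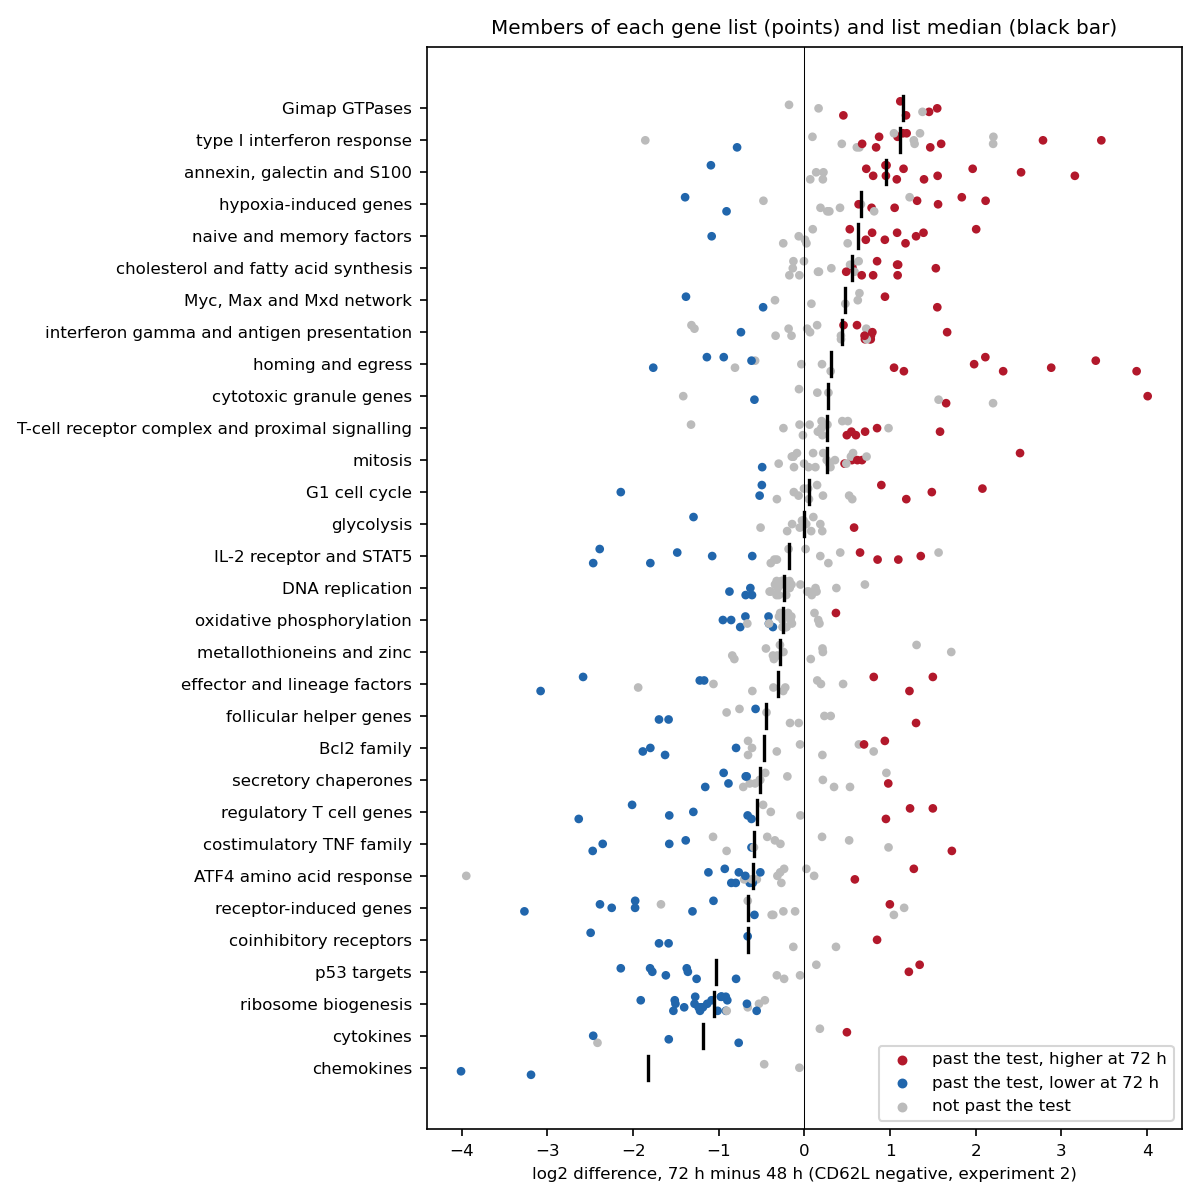
Log2 difference, 72 h minus 48 h, of every tested member (points) of 31 gene lists in CD62L negative cells of experiment 2, with the list median as a black bar and points coloured by the outcome of the test. Gimap GTPases and the type I interferon response have medians of 1.15 and 1.12, and ribosome biogenesis lies at -1.05 with 22 of 26 members lower.

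The change with time was then compared with that of CD62L positive cells, which share no library with it. In CD62L positive cells 2240 of 9239 genes passed (24.2%), 1100 higher (11.9%) and 1140 lower (12.3%). Of the 1158 rises in CD62L negative cells, 657 also rose in CD62L positive cells and 6 fell. Of the 1111 falls, 650 also fell there and 7 rose. Ribosome biogenesis had 19 of 26 tested members lower in CD62L positive cells, with a median of -1. The difference of the changes passed for 120 genes, 1.3% of those tested, with 65 positive (0.704%) and 55 negative (0.595%). In that test 958 genes had an unadjusted p under 0.05. Klf2, S1pr1 and Anxa2 had differences of 0.67, 0.89 and -0.06, which did not pass (adjusted p of 0.324, 0.237 and 0.973). Of the 55 negative genes, 27 fell in CD62L negative cells and did not pass in CD62L positive ones, 15 rose in CD62L positive cells and did not pass in CD62L negative ones, and 7 fell in CD62L negative cells and rose in CD62L positive ones. Of the 65 positive genes, 26 rose in CD62L negative cells and did not pass in CD62L positive ones, 17 fell in CD62L positive cells and did not pass in CD62L negative ones, and 6 rose in CD62L negative cells and fell in CD62L positive ones.

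Il2 had the largest negative difference of the 120 genes. In CD62L positive cells it had 15, 20.7 and 11.5 CPM at 72 h, against 1.15, 1.42 and 1.93 CPM at 48 h, a rise of 3.31 ± 0.54, whereas it fell in CD62L negative cells. The difference of the changes was -5.70 ± 0.60 (adjusted p = 4.13e-08). At 72 h the libraries of the sorts overlapped, and at 48 h every CD62L negative library was above 76 CPM and every CD62L positive one under 2 CPM. Nr4a1 in CD62L positive cells had 24.6, 24.5 and 17.9 CPM at 72 h, against 16.1, 12.1 and 16.7 CPM at 48 h, and its difference was -2.80 ± 0.36 (adjusted p = 1.31e-06). Bhlhe40 there had 30.8, 33.7 and 43.8 CPM at 72 h, against 15, 14.2 and 17.4 CPM at 48 h, with a difference of -2.39 ± 0.33. For both genes the sorts overlapped at 72 h and did not at 48 h. Ccl4 had 4.79, 0.765 and 1.15 CPM at 72 h, against 1.73, 0.711 and 2.57 CPM at 48 h in CD62L positive cells and a difference of -4.38 ± 0.78; without CD62L positive 72 h replicate 1 it was -3.27 at an adjusted p of 0.238. Without that same library Zbtb32, which differed by -2.33 ± 0.55, was at -1.69 and an adjusted p of 0.328; its call was also lost without CD62L positive 48 h replicate 1 (0.0524) or CD62L negative 72 h replicate 2 (0.0515). Nr4a3 differed by -2.35 ± 0.63 (adjusted p = 0.0422), a call lost without any of 8 of the 12 libraries, at adjusted p of 0.0539 to 0.374, the highest without CD62L positive 72 h replicate 1. Irf4 differed by -1.33 ± 0.23, Nfkbid by -1.99 ± 0.34, Nfkbia, the classical inhibitor of NF-kB, by -1.12 ± 0.17 and Cd69 by -1.58 ± 0.33. Snhg6, a host gene of small nucleolar RNA, differed by -1.96 ± 0.41, the death gene Bbc3 by -1.74 ± 0.35 and S100a6, of the S100 calcium-binding proteins, by -1.40 ± 0.26. In the list of receptor-induced genes 8 of 17 tested differed negatively and none positively, with a median of -1.22; leaving out 1 of the 12 libraries gave 4 to 7, with 4 or 5 without CD62L negative 72 h replicate 1 or 2, CD62L negative 48 h replicate 3, CD62L positive 72 h replicate 1 or any CD62L positive 48 h replicate.

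Among genes at or above the median level, the largest positive difference was that of Lrrc32, which carries latent TGF-beta on the cell surface. It rose in CD62L negative cells (25.6, 41.8 and 19.5 CPM at 72 h, against 11.7, 13.2 and 11.6 CPM at 48 h) and fell in CD62L positive ones, where it had 31.5, 29.1 and 30.5 CPM at 72 h, against 58.1, 59.7 and 66.9 CPM at 48 h. Its difference was 2.25 ± 0.42 (adjusted p = 0.000598). P2rx7, an ATP-gated channel of memory T cells, had 59.1, 49.2 and 53.5 CPM at 72 h, against 16.7, 21.8 and 14.1 CPM at 48 h in CD62L negative cells and 47.9, 59.7 and 65.7 CPM at 72 h, against 75.4, 53.3 and 68.2 CPM at 48 h in CD62L positive cells (1.77 ± 0.30). For both, every CD62L negative library at 48 h was below every library of the other 3 groups. Lta fell in both sorts, in CD62L positive cells with 178, 148 and 137 CPM at 72 h, against 2520.2, 2665 and 2784 CPM at 48 h, and differed by 1.64 ± 0.20. Isg20, an interferon-induced exonuclease gene, differed by 1.59 ± 0.29, Drc1 by 1.68 ± 0.23, Rasgrp2 by 1.77 ± 0.29 and the factor gene Sox4 by 1.85 ± 0.42. Mov10, an RNA helicase gene, differed by 1.75 ± 0.41, and its call was lost without CD62L positive 72 h replicate 1 (adjusted p = 0.0613), CD62L positive 48 h replicate 1 (0.0593) or CD62L negative 72 h replicate 2 (0.0676). Xbp1 differed by 1.27 ± 0.23, Itgb7 by 1.15 ± 0.24, Capg by 0.98 ± 0.19, Igtp by 0.96 ± 0.20, and of the STAT5-induced genes Socs2 by 1.21 ± 0.19 and Pim1 by 1.21 ± 0.26. Srm had 109, 91.1 and 80.1 CPM at 72 h, against 331, 360.5 and 366 CPM at 48 h in CD62L positive cells and a difference of 0.01 ± 0.21, which did not pass (adjusted p = 0.998).

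The size of the gap between the sorts was described at each time as the log2 ratio of mean CPM plus 1, CD62L negative over positive. For the 120 genes the median size of that ratio was 0.25 at 72 h and 1.28 at 48 h, and 109 of them were farther apart at 48 h. Over all 9239 genes tested the medians were 0.23 at 72 h and 0.31 at 48 h, with 5560 farther apart at 48 h. The genes were chosen for a change in this ratio, so these values describe them and test nothing. All 3 CD62L positive libraries at 48 h carry second number 1, and 2 of the 3 CD62L negative ones number 2; with that number as a covariate 98 genes passed, and its part in the result was not tested further.

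**Figure D3:**
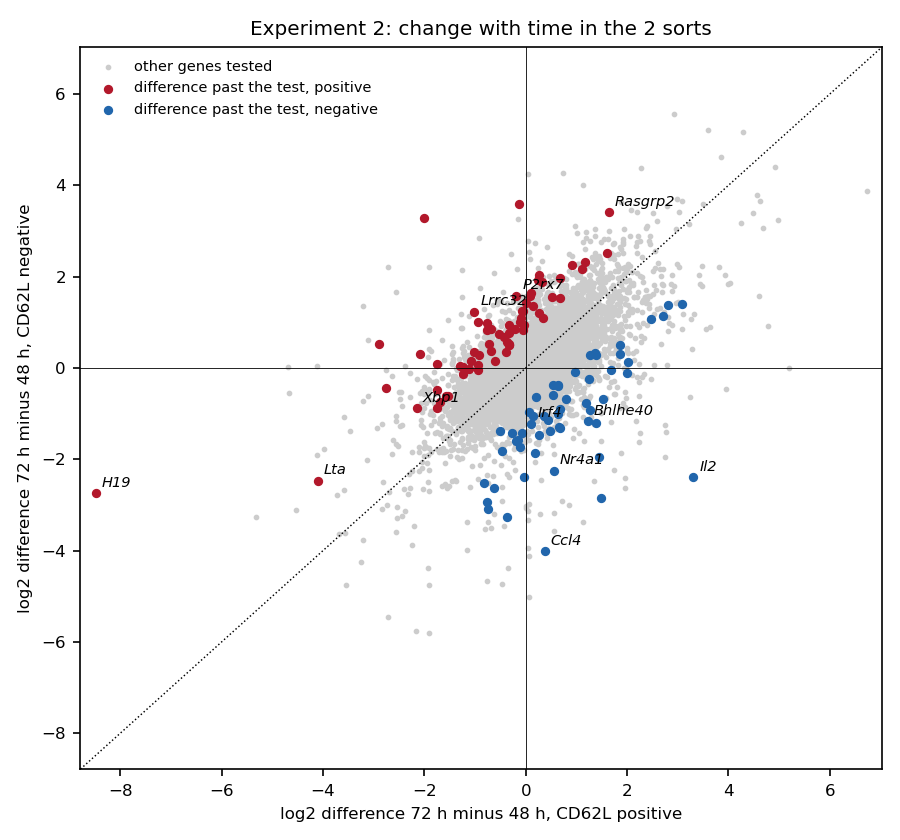
Log2 difference, 72 h minus 48 h, in CD62L negative cells (vertical) against CD62L positive cells (horizontal) for 9239 genes of experiment 2, with the 65 genes whose difference was positive in red and the 55 negative ones in blue. Il2 lies at -2.39 in CD62L negative and 3.31 in CD62L positive cells; H19, far left, had 0.684, 0 and 0 CPM in CD62L positive cells at 72 h, so that its position rests on 1 count.

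CD62L negative cells of experiment 1 gave the same comparison in libraries of their own. There 3267 of 8961 genes tested passed (36.5%), 1778 higher (19.8%) and 1489 lower (16.6%). Of 7839 genes tested in both experiments 1997 passed in experiment 2 and 2987 in experiment 1, and 1404 passed in both in the same direction, which is 70.3% of the genes called in experiment 2 and 47% of those called in experiment 1. Passing in experiment 1 was the case for 38.1% of the shared genes at large. Opposite directions were called for 18 genes. Among the 1997 genes 94.3% had the same sign in experiment 1, and across all shared genes, which are not independent replicates, the differences had a Pearson r of 0.685 and a Spearman rho of 0.671. The tables of the experiments differ: ribosomal proteins took 0.95 to 1.14% of counts in these libraries of experiment 1, and Irf7 is at 0 in all 6, so levels were never set across tables.

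The 15 rises and 15 falls named for genes at or above the median level had the same sign there wherever they were tested, though Cdkn1a and Gpr83, at -0.19 and -0.01, did not pass. Irf7, Rpph1 and Nr4a3 were not tested there. Klf2 rose by 2.88 ± 0.20 in experiment 2 and by 3.72 ± 0.16 in experiment 1, where it had 449, 465 and 453 CPM at 72 h, against 37.8, 29.7 and 36 CPM at 48 h. S1pr1 rose by 3.40 ± 0.25 in experiment 2 and 3.27 ± 0.19 in experiment 1, Anxa2 by 3.16 ± 0.18 and 3.47 ± 0.16, and Itgb7 by 2.32 ± 0.18 and 3.13 ± 0.16. Srm changed by -1.91 ± 0.16 in experiment 2 and -1.86 ± 0.15 in experiment 1, where it had 486, 486 and 545 CPM at 72 h, against 1752, 1903 and 1834 CPM at 48 h. In experiment 1 ribosome biogenesis had 21 of 24 tested members lower (median -1.17), the annexin, galectin and S100 list 13 higher and none lower, type I interferon genes 12 higher and 1 lower (median 1.15), and Gimap GTPases 7 higher. Il2 fell there too, with 49.1, 62.3 and 42.4 CPM at 72 h, against 116, 128 and 109.6 CPM at 48 h (-1.19 ± 0.19), and Irf8 changed by -2.58 ± 0.26 in experiment 2 and -2.75 ± 0.14 in experiment 1.

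Other genes moved in opposite directions or passed in 1 experiment alone. Penk, the precursor of enkephalin, had 3.53, 1.64 and 1.62 CPM at 72 h, against 20.0, 15.5 and 10.1 CPM at 48 h in experiment 2 (-2.72 ± 0.56), while in experiment 1 it had 152, 194 and 159 CPM at 72 h, against 62.1, 89.1 and 56 CPM at 48 h, a rise of 1.28 ± 0.18. Nrn1, neuritin, had 145, 108 and 74.6 CPM at 72 h, against 482, 312 and 355 CPM at 48 h in experiment 2 (-1.81 ± 0.19) and 179, 201 and 159 CPM at 72 h, against 83.9, 73.1 and 75.9 CPM at 48 h in experiment 1 (1.22 ± 0.16). Ebi3 changed by -1.30 ± 0.18 in experiment 2 and rose by 1.10 ± 0.19 in experiment 1. These 3 genes were chosen from the 18 after their values were seen. Cdkn1a had 1061, 1268 and 1099 CPM at 72 h, against 1373, 1366 and 1166 CPM at 48 h in experiment 1, which did not pass (-0.19 ± 0.15, adjusted p = 0.34). Cholesterol synthesis had 2 members higher and 1 lower there, with a median of -0.04. Mitotic genes had 13 of 25 higher and none lower (median 0.41), with Mki67 at 1.13 (adjusted p = 4.78e-06). Naive and memory genes had 6 of 17 higher and none lower (median 0.25), with Tcf7 at 0.10 and Satb1 at 0.23. Coinhibitory receptors had 3 of 9 higher and 2 lower (median -0.06). Genes of the response to low oxygen had 9 of 18 higher and 5 lower (median 0.41). Costimulatory TNF family genes had 1 of 14 higher and 6 lower (median 0.20). The difference between CD62L negative and positive cells, computed in experiment 1 after the data were seen, passed for 169 of 8961 genes (1.89%), 116 positive (1.29%) and 53 negative (0.591%). Of 106 genes that passed in experiment 2 and were tested in both, 20 passed there in the same direction (18.9%). They are 12.7% of the 157 such genes of experiment 1, and none passed in opposite directions. Of the 20, 17 differed positively and 3 negatively. The median difference in experiment 1 was 0.719 for genes called positive in experiment 2 and -0.232 for those called negative. Lrrc32 differed by 2.26 and Isg20 by 2.08 (adjusted p = 0.00133 and 0.00123), whereas Il2 differed by -1.35 at an adjusted p of 0.22 and Nr4a1 by 0.75 at 0.203, neither past the threshold. In the list of receptor-induced genes none of the 14 tested in experiment 1 differed between the sorts, with a median of -0.08. Whether these differences themselves differ between the experiments was not tested.

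**Figure D4:**
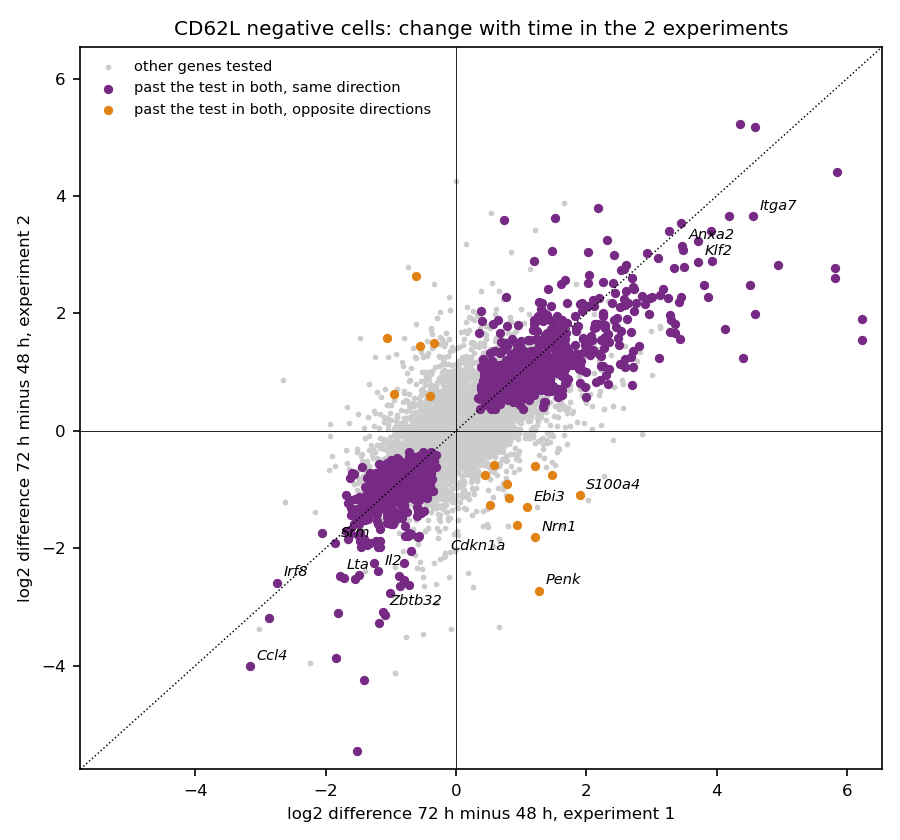
Log2 difference, 72 h minus 48 h, in CD62L negative cells of experiment 2 (vertical) against experiment 1 (horizontal) for 7839 genes tested in both, with the 1404 genes past the test in the same direction in purple and the 18 in opposite directions in orange. Klf2 lies at 2.88 and 3.72, and Penk at -2.72 and 1.28.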

How the data were processed

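Unique-molecule 3′-end RNA sequencing of bulk sorted cells was deposited by the authors as 1 table per experiment of counts per gene symbol, which are raw whole numbers. Per the submitters' processing notes, the tools were STAR 2.5.2b, HISAT 0.1.5, HTSeq 0.9.1, FastQC 0.11.7 and bcl2fastq 2.17.1.14, and the build was mm9, with no roles given. Not given in the sources used here are the aligner of each table, the annotation, the strand setting and any collapse of molecular identifiers, and reads of overlapping genes cannot be told apart.

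From the counts, edgeR 4.0.16 (R 4.3.3, limma 3.58.1) fitted a robust quasi-likelihood model to all 13 groups of experiment 2 and all 6 of experiment 1, with TMM scaling and genes kept by filterByExpr at a minimum count of 10. P-values were adjusted by the Benjamini-Hochberg method over all genes tested, with a threshold of 0.05, and SE is the log2 difference divided by the square root of F. CPM uses TMM-scaled library sizes. On simulated data with log2 changes of 1 and 2, the comparison of 72 h with 48 h recovered 81% and 98% of 100 changed genes each, with 8782 genes run. The difference between sorts recovered 37% and 92% of 100 each, with 8792 genes run. The changes were put only into genes of higher counts, so recovery among genes of few counts was not measured. Spread was drawn from the trend fitted over all groups, so a spread particular to 1 group was not modelled. Experiments were never pooled. DESeq2 1.42.0, other scalings and filters, and left-out libraries were tried as alternatives.

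Genes named were the 15 largest rises and falls without overlap at or above the median average level of genes tested, up to 5 members of each list by adjusted p, a set of 20 activation and lineage genes, not all of which are reported here, and the 8 largest differences between sorts each way at or above that level. Selplg, Ccr4, Cd69, Stat4, Jun, Fos, Gapdh, Nfkbia, Bbc3, S100a6, Socs2 and H19 were added after their values were seen. The groups compared and the gene lists were chosen with earlier results of these data known. Promoters are from RefSeq GRCm38.p6, another build than that of the counts, and were matched by symbol.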

Additional observations from a re-analysis of the deposited data

Results flagged for a closer look

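The change between 72 h and 48 h differed between CD62L negative and CD62L positive cells of experiment 2, by edgeR's test of the difference itself, for each gene below. Values are the log2 change in CD62L negative cells minus that in CD62L positive cells.

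Negative differences were -5.70 for Il2, -4.38 for Ccl4, -2.80 for Nr4a1, -2.39 for Bhlhe40, -2.35 for Nr4a3, -2.33 for Zbtb32, -1.99 for Nfkbid, -1.96 for Snhg6, -1.74 for Bbc3, -1.58 for Cd69, -1.33 for Irf4, -1.12 for Nfkbia and -1.40 for S100a6.

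Positive differences were 5.74 for H19, which rests on 1 count in CD62L positive cells at 72 h, 1.75 for Mov10, 2.25 for Lrrc32, 1.85 for Sox4, 1.77 for P2rx7, 1.77 for Rasgrp2, 1.68 for Drc1, 1.64 for Lta, 1.59 for Isg20, 1.27 for Xbp1, 1.21 for Socs2, 1.21 for Pim1, 1.15 for Itgb7, 0.98 for Capg and 0.96 for Igtp. The calls of Ccl4, Nr4a3, Zbtb32 and Mov10 were lost without 1 library or more. The call of Pim1 was lost when only the compared groups were fitted (adjusted p = 0.0894).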

How the results depend on the processing

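Of 9239 genes tested in CD62L negative cells of experiment 2, 2269 passed with TMM scaling. The count was 2240 with RLE factors, 2219 with library totals alone and 2217 with DESeq2, each of the same 9239. Without the low-count filter it was 2217 of 15497 genes tested. Fitting the compared groups alone gave 1483, libraries of second number 1 alone gave 1528 and those of number 2 alone 1164. Without 1 library it ran from 1757 (without 72 h replicate 2) to 2074 (without 48 h replicate 1). With the replicate number as a block it was 2276; same-numbered libraries had correlations of deviations of 0.000849, 0.313 and 0.0954, so the numbers were not taken to pair them. Under the block, the difference between sorts passed for 111 genes instead of 120, and the change in experiment 1 for 3239 instead of 3267, and Foxp3 and the difference of Nr4a3 lost their calls (adjusted p of 0.0545 and 0.052). The difference of Nr4a3 was also lost with the second number as a covariate (0.113) and in the compared groups alone (0.0874).

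The difference between sorts ran from 82 (without CD62L positive 48 h replicate 1) to 172 genes (without CD62L negative 48 h replicate 1). In experiment 1 the change ran from 2705 to 2930 without 1 library. Its difference between sorts passed for 169 genes, for 260 with DESeq2 and, without the filter, for 279 of 14171 tested. Without 1 library it ran from 79 (without CD62L positive 72 h replicate 1) to 256 (without CD62L positive 72 h replicate 3). It was 95 or 103 without CD62L negative 48 h replicate 1 or 2, and 102 without CD62L negative 72 h replicate 2. The causes were not tested. The median of the IL-2 and STAT5 list changed sign without 48 h replicate 3, to 0.0035. The lower depth at 72 h limits genes of few counts.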

Other observations

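H19, an imprinted non-coding RNA named after its values were seen, had 4.41, 3.28 and 4.06 CPM at 72 h, against 28.4, 21.8 and 30.8 CPM at 48 h in CD62L negative cells, and 0.684, 0 and 0 CPM at 72 h, against 110.5, 98.1 and 113 CPM at 48 h in CD62L positive cells. Its fitted difference between the sorts, 5.74, was the largest positive one of the 120 genes, and it rests on 1 count in CD62L positive cells at 72 h. Among genes called in opposite directions in the experiments, S100a4 changed by -1.09 ± 0.36 in experiment 2 and 1.90 ± 0.67 in experiment 1, and Cpsf6, a pre-mRNA processing factor gene, by 2.65 ± 0.58 and -0.61 ± 0.13. The call of S100a4 was lost in experiment 2 without 72 h replicate 1 or 3 or 48 h replicate 3 (adjusted p of 0.0623 to 0.125), and in experiment 1 without 72 h replicate 3 or 48 h replicate 1 or 2 (0.064 to 0.141). Both genes were chosen after their values were seen.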
